A study of Mus musculus with 9 samples.

Results

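The genes of the cytosolic ribosomal proteins are described here in fluorescent cells, sorted as amygdala neurons, of mice that differ in approach and avoidance behavior. Members were taken by symbol, as every Rpl, Rplp, Rps or Rpsa gene of the nuclear genome without pseudogenes and without the Rps6k kinases. Of 89 such symbols in the annotation, 65 had values in the table of BA and AV mice (38 of the large and 27 of the small subunit, among 9872 genes) and 80 in the table of BA and AP mice (47 and 33, among 11820 genes). The 65 were all among the 80, and 9 symbols had values in neither table, among them Rplp1 and 8 copies or tissue-restricted paralogues such as Rpl3l, Rpl10l and Rpl39l.

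Each stranded paired-end library held RNA of the YFP-positive cells of 1 animal (B6.Cg-Tg(Thy1-YFP)HJrs/J), which were sorted from its dissociated amygdala. All groups carry the same transgene, whose Thy1 promoter is also active in other projection neurons, and none received an agent. The mice were sorted by their spontaneous choice in an approach/avoidance conflict task into balancing (BA), avoiding (AV) and approaching (AP) animals, and their brains were taken a month after the task. No age is given in the sources used here. The values are a normalized signal for 3 BA and 2 AV mice in one table and for the same 3 BA mice and 3 AP mice in the other. The authors removed the remaining AV mouse, replicate 2, as an outlier. Since the tables were normalized separately, AV and AP mice were never compared with each other, and both comparisons share their BA mice.

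In the BA vs AV table, a mouse's values added up to between 3267967 and 3974274, and the number of counted reads behind them is unknown. In the BA vs AP table, the values added up to between 4589304 and 5072766. Most of the low values there lay on steps that correspond to between 3815915 and 6721203 reads counted over the listed genes of a mouse. The paper gives sequenced reads only as a mean and range over libraries, and these are several times higher. The label of pyramidal neurons was checked against markers: of 10 excitatory neuron markers only Nrgn had values, whereas 9 of 10 oligodendrocyte markers did in the BA vs AV table and together made up between 5.26% and 6.19% of the signal of a BA mouse. Slc17a7, Slc17a6 and Neurod6, which mark excitatory neurons, and Snap25 and Syt1, which mark neurons of any kind, were among those without values in either table. Thy1 had none either. In a bulk sample, fewer cells of a type and less RNA per cell cannot be told apart.

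The cytosolic ribosome is built from a large subunit, which joins amino acids at the peptidyl transferase centre, and a small subunit, which reads the mRNA. Each carries ribosomal RNA and a set of proteins that are needed in equal numbers, and the mRNAs of most of these proteins begin with a cytosine followed by a run of pyrimidines, the TOP motif, through which mTOR signaling and the binding protein Larp1 control their translation together. In neurons, ribosomes lie in the cell body and also in dendrites and axons, where they serve local protein synthesis.

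Annotated start sites of some members show a pyrimidine run by the definition used here, and those of others do not. RefSeq promoter windows of GRCm38.p6, from 250 bases before to 50 after a start, were matched by symbol to 64 of the 89 members. The stretches below run from 60 bases before the start to 10 bases after it. Capitals mark a run of at least 8 C or T that reaches within 10 bases of the start, and that of Rps27l ends before the start. Rpl12 has a run of 7, just under this cutoff, and is not marked. Rpl35a has 3 annotated starts, with runs of 4, 13 and 5, and Rps27l has 2, with runs of 9 and 4. For both, the start with the longest run is printed. The first lines show members with the largest increases in AV mice, and the last lines the members that passed no threshold there.
Rpl38 (chr11:114668520-114668589, plus strand): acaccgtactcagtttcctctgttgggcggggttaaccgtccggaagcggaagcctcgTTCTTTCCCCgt
Rpl37 (chr15:5116553-5116622, plus strand): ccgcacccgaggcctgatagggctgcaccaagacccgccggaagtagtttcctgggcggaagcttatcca
Rpl41 (chr10:128549159-128549228, minus strand): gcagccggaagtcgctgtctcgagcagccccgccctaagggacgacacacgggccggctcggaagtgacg
Rpl35a (chr16:33056422-33056491, plus strand): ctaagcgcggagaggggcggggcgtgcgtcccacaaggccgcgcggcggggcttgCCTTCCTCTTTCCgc
Rps3 (chr7:99483700-99483769, minus strand): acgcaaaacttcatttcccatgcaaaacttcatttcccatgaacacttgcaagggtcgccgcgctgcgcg
Rpl7l1 (chr17:46782647-46782716, minus strand): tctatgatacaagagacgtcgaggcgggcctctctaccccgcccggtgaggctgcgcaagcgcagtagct
Rpl12 (chr2:32961652-32961721, plus strand): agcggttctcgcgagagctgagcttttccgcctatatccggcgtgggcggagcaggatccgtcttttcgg
Rps27l (chr9:66946026-66946095, plus strand): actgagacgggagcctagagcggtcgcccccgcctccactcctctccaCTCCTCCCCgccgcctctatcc

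A pyrimidine run by this definition, which may end before the start, was found in 46.9% of the 64 member genes. The share was 15.8% of all 27025 genes with windows of the same length. The letters CGGAAG, the core bound by ETS factors, were found on either strand in 65.6% of members and 18.8% of all genes, and they stand 2 times each in the printed stretches of Rpl38, Rpl37 and Rpl41. The SP1 letters GGGCGG were found in 60.9% of members against 38.2% of all genes, and the YY1 letters ATGGCGG in 17.2% against 4.69%. The TATA letters TATAAA were the exception, with 12.5% of members and 15.7% of all genes. RefSeq starts are not always the start used in a tissue, so a window without a run says only that these letters are not in it.

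In AV mice, mRNAs of the cytosolic ribosome were higher than in BA mice nearly throughout. By limma on log2(value + 1), with p-values adjusted over all 9872 genes, 61 of 65 members rose and 0 fell. Over all genes of that table, 13.6% rose, 16.2% fell and 29.7% changed in either direction. The median log2 fold change of the members was 1.54, or 2.90-fold, with quartiles of 1.26 and 1.74, while the median over all genes was -0.03. In 62 of 65 members both AV mice lay above all BA mice, compared with 27.7% of all genes, and 56 of 65 had a log2 fold change of at least 1, compared with 13.1% of all genes.

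**Figure D1:**
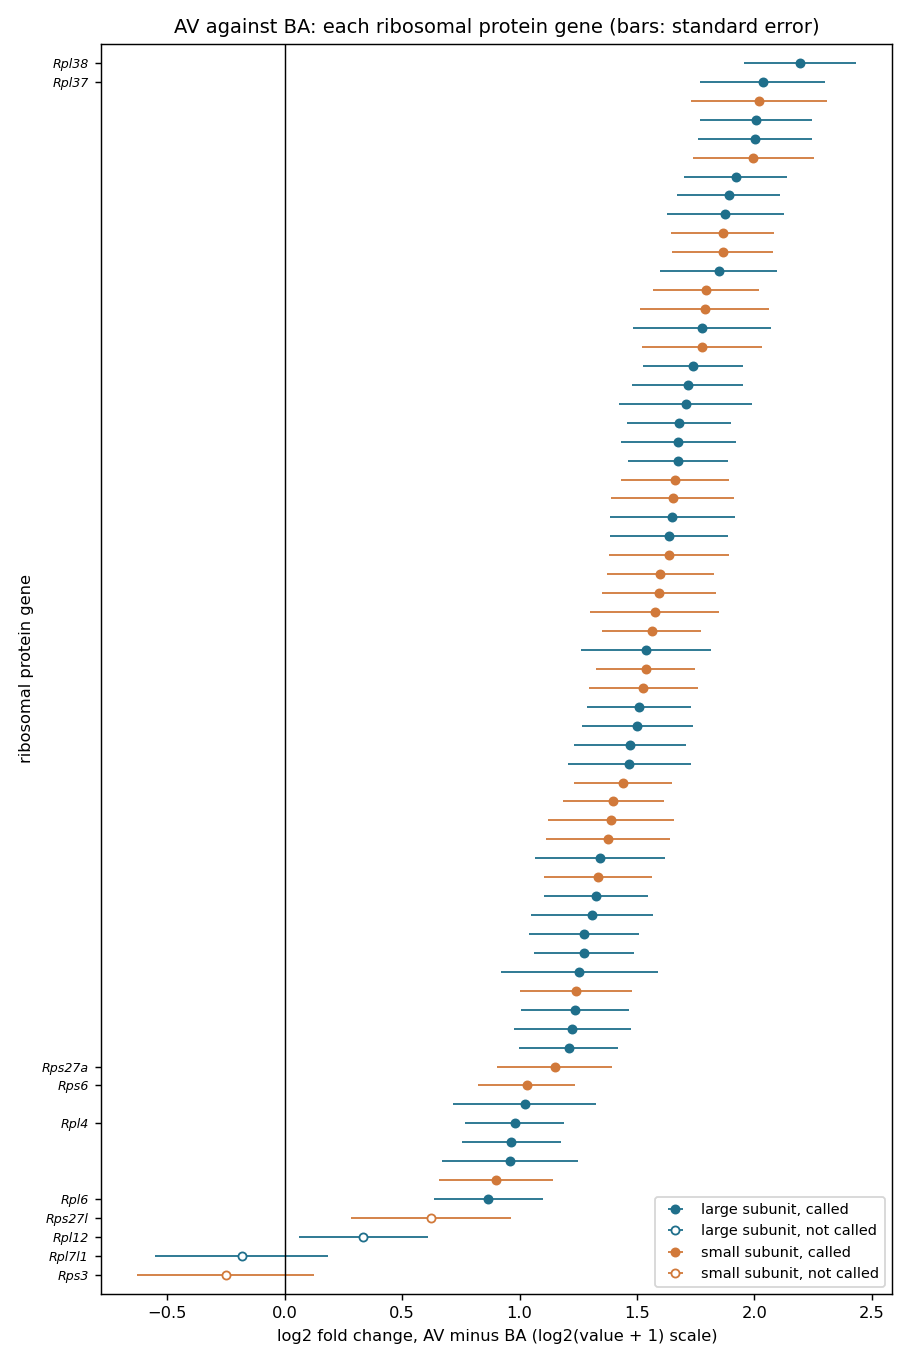
Log2 fold change of AV against BA mice for each of the 65 ribosomal protein genes, ordered by size, with bars of 1 standard error (limma, 3 BA and 2 AV mice). Filled points passed an adjusted p of 0.05, and some of the genes described in the text are labelled. The 61 called genes lie between 0.87 (Rpl6) and 2.19 (Rpl38), in both subunits, and the 4 open points are Rps27l, Rpl12, Rpl7l1 and Rps3.

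The largest increase was that of Rpl38, a small protein at the surface of the large subunit that is known for its part in the translation of Hox mRNAs. Its values were 171, 152 and 130.4 in BA mice and 615 and 778 in AV mice. The groups did not overlap, and the log2 fold change was 2.19 (SE 0.24, adjusted p = 0.00319). Rpl37, a zinc-binding protein of the large subunit, had 187, 168 and 169 in BA mice against 567 and 907 in AV mice, a change of 2.03 (SE 0.27) on the log2 scale. Rpl41, the shortest ribosomal protein, had 383, 309.5 and 271 against 1205 and 1354, or 2.0 (SE 0.24). In each of these genes AV replicate 3 was the highest mouse.

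Rps29, a zinc-binding protein of the small subunit's head, had 109, 141 and 99.7 in BA mice and 376 and 590.1 in AV mice (log2 fold change 2.02, SE 0.29). Rpl17, at the exit of the peptide tunnel, had 180.2, 157 and 220.5 against 724 and 763 (2.01, SE 0.24). The lowest AV value of both was over the highest BA value. Rpl23a and Rpl35a were also among the 8 largest, and their log2 fold changes were 1.92 (SE 0.22) and 1.89 (SE 0.22). Rpl38, Rpl37, Rpl41, Rps29, Rpl17, Rpl23a and Rpl35a each had an adjusted p of 0.00483 or less.

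Toward the lower end of the called genes stood, among others, Rpl6, Rpl4, Rps6 and Rps27a. Rpl6 had 352, 402 and 295 in BA mice against 635 and 633 in AV mice (log2 fold change 0.87, SE 0.23, adjusted p = 0.0316). Rpl4, whose extension lines the peptide tunnel, had 835, 814 and 727 against 1570.5 and 1548 (0.98, SE 0.21). Rps6, the ribosomal protein that S6 kinases phosphorylate, had 577, 607 and 546 against 1186 and 1171, or 1.03 (SE 0.21, adjusted p = 0.0124). Rps27a, made as a fusion with ubiquitin, had 416, 306 and 315 against 696 and 829 (1.15, SE 0.24). These members did not overlap between groups either, although their changes were smaller than the median of 1.54.

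The 4 members that passed no threshold in AV mice differed in kind. Rps3, at the mRNA entry of the small subunit and also known in DNA repair, had the highest values of the family, 2122, 4986 and 2939.7 in BA mice and 2385 and 2926 in AV mice. The AV mice lay inside the range of the BA mice, BA replicate 2 stood above all others, and the log2 fold change was -0.25 (SE 0.38, adjusted p = 0.644). Without BA replicate 2 it was 0.08. The exons of Rps3 share 145 bases with the small nucleolar RNA gene Snord15b on the same strand, and their part in its values was not tested.

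Rpl7l1, a paralogue of Rpl7 that is known from ribosome assembly, had 118, 87.1 and 130.3 in BA mice and 66.2 and 142 in AV mice, so that the 2 AV mice lay on either side of all BA mice (log2 fold change -0.18, SE 0.37). Rpl12, which forms the base of the P stalk, had 29.7, 29.7 and 31.3 against 49.98 and 29.4, and AV replicate 1 alone was higher (0.34, SE 0.28, adjusted p = 0.386). Rps27l, a p53-induced paralogue of Rps27, had 58.05, 48.9 and 27.5 against 63.05 and 70.1 (0.62, SE 0.34, adjusted p = 0.206). Its groups did not overlap, but the highest BA mouse came close to the lower AV mouse.

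Mouse by mouse, both AV mice stood apart from every BA mouse. The median difference of the 65 members from the mean of the BA mice was 0.10, 0.05 and -0.10 in BA replicates 1, 2 and 3, 1.39 in AV replicate 1 and 1.62 in AV replicate 3. AV replicate 3 was above AV replicate 1 in 54 of 65 members. The members made up between 0.450% and 0.512% of the signal of a BA mouse and 1.28% and 1.40% of that of the AV mice. Without Rps3, these shares were between 0.373% and 0.419% in BA mice and 1.21% and 1.32% in AV mice. Leaving out 1 mouse at a time gave between 51 and 59 called members and a median between 1.39 and 1.62.

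**Figure D2:**
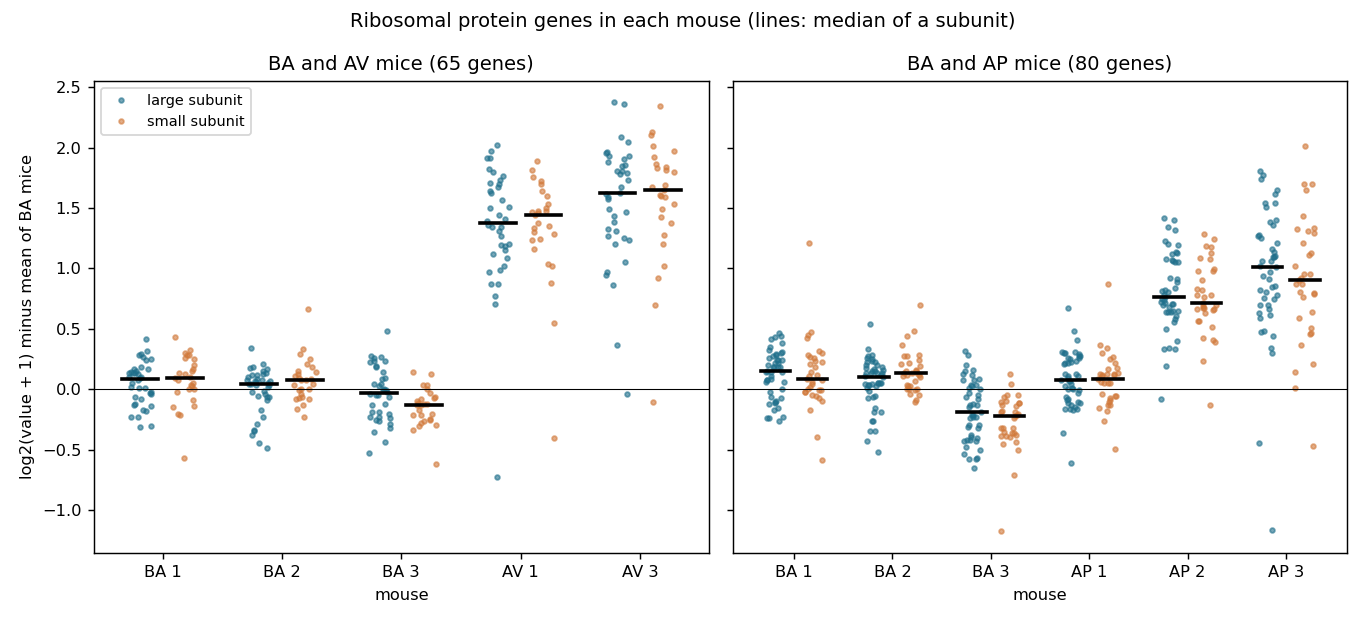
Difference of each ribosomal protein gene from the mean of the BA mice, on the log2(value + 1) scale, in each mouse of the BA vs AV table (left, 65 genes) and the BA vs AP table (right, 80 genes). Points are genes, blue for the large and orange for the small subunit, and black lines are medians. The medians of both AV mice lie between 1.38 and 1.65, those of AP replicates 2 and 3 between 0.71 and 1.02, and those of AP replicate 1 at 0.08 and 0.09, among the BA mice.

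Large and small subunit genes moved by like amounts. In AV mice, 36 of 38 large subunit genes and 25 of 27 small subunit genes rose, with medians of 1.51 and 1.56 and quartiles of 1.24 and 1.73 for the large and of 1.35 and 1.72 for the small subunit. The large minus small difference of the medians was -0.06. Calculated within a mouse, it was -0.01, -0.03 and 0.10 in BA mice and -0.07 and -0.03 in the AV mice, so that AV replicate 1 lay below the lowest BA mouse and AV replicate 3 among the BA mice. Its sign changed with the settings, and no test was made, because genes of a subunit share their libraries.

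By position in the ribosome, increases were found at each of the sites listed here. These counts repeat that of the whole family, in which 61 of 65 rose, compared with 13.6% of all genes. At the mouth of the peptide exit tunnel, 8 of 8 listed genes rose, with a median of 1.66, from 0.98 for Rpl4 to 2.01 for Rpl17. In the head of the small subunit, 10 of 11 rose, with a median of 1.56, and Rps3 was the exception. Near the mRNA exit, Rpsa, the laminin receptor homologue, had 574, 477 and 399.6 in BA mice against 1073 and 1442 in AV mice (1.38, SE 0.26). Rps26, which contacts the mRNA before the start codon, had 211, 276 and 215 against 724 and 749 (1.66, SE 0.23), and Rps14 rose by 1.59 (SE 0.24).

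The P stalk, which recruits elongation factors, was less even. Rplp0, its backbone, had 402, 324 and 209 in BA mice and 612 and 846 in AV mice (1.26, SE 0.33, adjusted p = 0.0307), and Rplp2 had 120.0, 105 and 83.1 against 246 and 357 (1.54, SE 0.28). In both, BA replicate 3 was lowest and AV replicate 3 highest. Rpl12 was not called, as given above. Rpl5, which enters the ribosome with the 5S RNA and, with Rpl11, restrains Mdm2, had 143, 85.5 and 141 against 236 and 232 (0.96, SE 0.29, adjusted p = 0.0466). Of 18 genes mutated in Diamond-Blackfan anaemia, the ribosomopathy of red cell precursors, 15 were listed and 15 rose, with a median of 1.64. This count too is near that of the whole family, 61 of 65, while 13.6% of all genes rose.

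Proteins of the ribosome that the symbol rule leaves out followed the members. Fau, the fusion that yields Rps30, had 271, 212 and 183 in BA mice against 433 and 667 in AV mice (1.29, SE 0.29). Rack1, the scaffold on the head of the small subunit, had 358, 248 and 304 against 737 and 732 (1.29, SE 0.24). The intronless copies Rpl36al and Rps27rt rose by 1.21 (SE 0.29) and 1.99 (SE 0.29), so that each of these 4 genes was called. Copies of this kind share sequence with their parent gene, and the counting could split reads between them. In the BA vs AV table, for instance, Rps27rt and the pseudogene Rps12-ps3 (132, 110.4 and 94.2 against 297 and 387) had values and the parents Rps27 and Rps12 had not, while the BA vs AP table gave values for the parents and not for these copies. Rps12-ps3 was chosen after its values were seen.

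AP mice showed a smaller difference of the same sign, which did not pass the test. With p-values adjusted over 11820 genes, limma called 0 of 80 members, at a background of 0.00846% of all genes in either direction and 0% higher. The lowest adjusted p was 0.347. With the variance prior set to follow mean expression, limma also called 0. At an unadjusted p of 0.05, 27 of 80 members were higher and 0 lower, compared with 4.99% of all genes higher. The members' median log2 fold change was 0.60, or 1.52-fold, from -0.44 to 1.14, with 77 of 80 above zero, while 46.5% of all genes were above zero and their median was -0.03. In 20 of 80 members all AP mice lay above all BA mice, against 5.64% of all genes.

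The 3 AP mice were not alike. Their members' median differences from the BA mean were 0.08 in replicate 1, 0.76 in replicate 2 and 0.95 in replicate 3, and those of the BA mice were 0.14, 0.12 and -0.21. AP replicate 1 was below both other AP mice in 76 of 80 members and lay within the range of the BA mice in 58, while AP replicate 2 was above all BA mice in 76 and AP replicate 3 in 71. The members' share of the signal was 0.537%, 0.904% and 1.01% in AP replicates 1, 2 and 3 and between 0.463% and 0.564% in BA mice.

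The count at an unadjusted p of 0.05, here in either direction, changed when single mice were left out. It was 60 without AP replicate 1, where 8.55% of all genes were higher at that p and the members' median was 0.86. It was 6 without AP replicate 2 and 3 without AP replicate 3. Without BA replicates 1, 2 or 3 it was 11, 15 and 9. For the fits other than that without AP replicate 1, the share of all genes was not calculated. Those counts therefore have no background beside them, and a fit with fewer mice is also weaker. No member was called at an adjusted p of 0.05 in any of these fits.

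The largest difference in AP mice was that of Rps23, the decoding-centre protein of the small subunit. It had 127, 202 and 182 in BA mice and 199, 379 and 676 in AP mice, so that AP replicate 1 lay within the BA range (log2 fold change 1.14, SE 0.43, adjusted p = 0.572). Rpl37a had 247, 204 and 113 against 219, 474 and 550.3 (1.1, SE 0.42), and Rpl41 had 477, 397 and 321 against 395, 1053 and 1347 (1.07, SE 0.44). Rpl13 (1.04, SE 0.40) and Rpl38 (1.04, SE 0.43) completed the 5 largest. All 5 overlapped with the BA mice through AP replicate 1.

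Rpl31, at the tunnel exit of the large subunit, was steadier. It had 159, 178 and 182 in BA mice and 276, 375 and 400.2 in AP mice. All 3 AP mice were above all BA mice, and with a log2 fold change of 1.0 (SE 0.23) it had the lowest unadjusted p of the family, 0.00225 (adjusted p = 0.347). Rpl31 is outside the rule for named genes and was chosen after its values were seen.

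Members with the lowest differences in AP mice were Rpl27 at -0.44 (SE 0.34), Rps27l at -0.36 (SE 0.33), Rpl7l1 at -0.16 (SE 0.25), Rps27a at 0.12 (SE 0.24) and Rpl22l1 at 0.14 (SE 0.35). Rpl27, which was called in AV mice with 75.6, 61.0 and 70.2 against 147 and 180.4 (1.24, SE 0.23), had 87.3, 74.8 and 74.3 in BA mice of the BA vs AP table against 61.1, 90.0 and 34.4 in AP mice. AP replicate 3, the highest mouse for 50 of 80 members, was the lowest for Rpl27. Rps6 had 677, 747 and 618 against 619.9, 1104 and 1059 (0.40, SE 0.28).

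Large and small subunit medians in AP mice were 0.60 and 0.59. Within a mouse, the large minus small difference was 0.06, -0.03 and 0.03 in BA mice and -0.01, 0.06 and 0.12 in AP replicates 1, 2 and 3. Of the 2 proteins that accompany the 5S RNA, Rpl5 was 0.50 (SE 0.31) and Rpl11 0.60 (SE 0.40) above the BA mice, without passing the test. Tunnel exit genes had a median of 0.81 over 9 genes and small subunit head genes one of 0.64 over 14 genes.

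The 15 members with values in the BA vs AP table alone spanned low and high levels. They included Rpl13, Rps2, Rps16 and Rpl8, and their BA means lay between 21.2 (Rps4l) and 380.2 (Rpl13a). Across the 65 members in both tables, the mean of the same BA mice was 1.2 times as high in the BA vs AP table by the median, and 59 of 65 ratios were between 1.1 and 1.3. The median over the 9417 genes in both tables was 1.18. Rpl12 was the outlying member, with a BA mean of 30.2 in one table and 71.6 in the other, a ratio of 2.37, followed by Rpl5 at 1.67. The level of Rpl12 given above for AV mice rests on the lower of these estimates.

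Paralogues of ribosomal proteins did not all follow their partners. Rpl22 had 141, 133 and 112 in BA mice and 325 and 319 in AV mice (1.33, SE 0.22), and Rpl22l1, which is known to replace it, had 109, 70.6 and 116 against 166 and 233 (1.02, SE 0.30, adjusted p = 0.0442). Both rose in AV mice, and the values of Rpl22l1 varied more between mice. Rpl7 had 483, 529 and 502 against 926 and 1049.5 (0.97, SE 0.21), whereas Rpl7l1 showed no shift.

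In AP mice, Rps27 had 189, 216 and 193 in BA mice against 245, 425 and 365 (0.75, SE 0.26, adjusted p = 0.525), and Rps27l had 64.9, 58.4 and 29.0 against 33.8, 43.8 and 34.4. The X-linked Rps4x had 417, 465 and 391 against 439, 657 and 489 (0.30, SE 0.24), and in AV mice it rose by 1.44 (SE 0.21). Its paralogue Rps4l was the lowest of all 80 members, with 40.4, 16.3 and 6.90 in BA mice and 31.6, 34.6 and 23.6 in AP mice, a spread over BA mice that covered the AP mice. Rpl3 and Rpl10, whose paralogues had no values in either table, rose by 1.5 (SE 0.24) and 1.47 (SE 0.24) in AV mice.

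**Figure D3:**
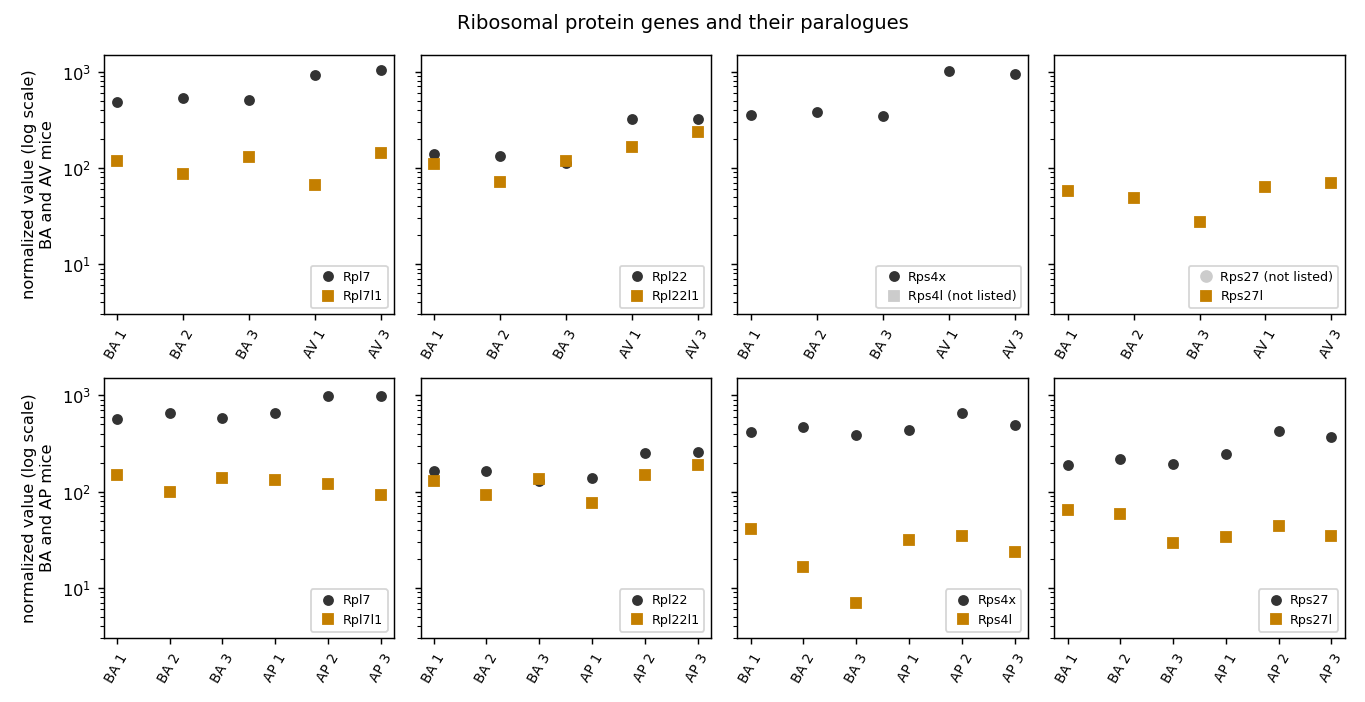
Normalized values of ribosomal protein genes (circles) and their paralogues (squares) in each mouse, on a log scale, in the BA vs AV table (top) and the BA vs AP table (bottom). Rpl7, Rpl22 and Rps4x are higher in both AV mice than in all BA mice, whereas Rpl7l1 and Rps27l stay within or near the BA range, and Rps4l varies between 6.90 and 40.4 among BA mice.

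Levels of the members were compared per kilobase of exon, since the tables give signal per gene. In BA mice of the BA vs AV table, they ran from 24.3 for Rpl12 to 1755 for Rps3, with a median of 206, and 43 of 65 lay within 2-fold of it. After Rps3 came Rps6 at 657, Rpl23a at 548, Rpl4 at 515 and Rpl10 at 477, and of these Rpl23a, Rpl4 and Rpl10 overlapped between BA mice while Rps6 lay above them in every BA mouse. Rps3 stood above Rps6 in every BA mouse too, although its own values ranged from 1112 to 2613 per kilobase. At the low end were Rpl12, Rpl18 at 33.1, Rps15a at 35.5, Rpl7l1 at 35.6 and Rps20 at 59.8. The annotated exons of Rpl18, Rps15a, Rpl7l1 and Rps20 reach 3413, 5395, 3140 and 3706 bases, through long transcript models, which lowers their level per kilobase. In the BA vs AP table, levels ran from 22.5 for Rps4l to 2106 for Rps3, with a median of 230.0.

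Shorter members had the larger changes. The members' exons had a median of 977 bases, against 3712 bases for all genes of the BA vs AV table. Across the 65 members, Spearman's rho of the log2 fold change with exon length was -0.40 in AV mice. It was -0.35 across the mitochondrial ribosomal proteins and -0.07 across all genes. Genes are not independent replicates and share their libraries. Among the other genes, the bins with median lengths of 903 and 1354 bases had median changes of 0.29 and 0.26 in AV mice. Members under the median length had a median log2 fold change of 1.66 and those at or over it 1.38. In AP mice the medians were 0.75 and 0.55, and rho was -0.40, against -0.09 across the mitochondrial ribosomal proteins and -0.09 across all genes. With a smooth trend of change on length over all genes removed, the median in AV mice was 1.26 and 56 of 65 members were called. Whether fragment length or library preparation has a part in this relation was not tested.

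**Figure D4:**
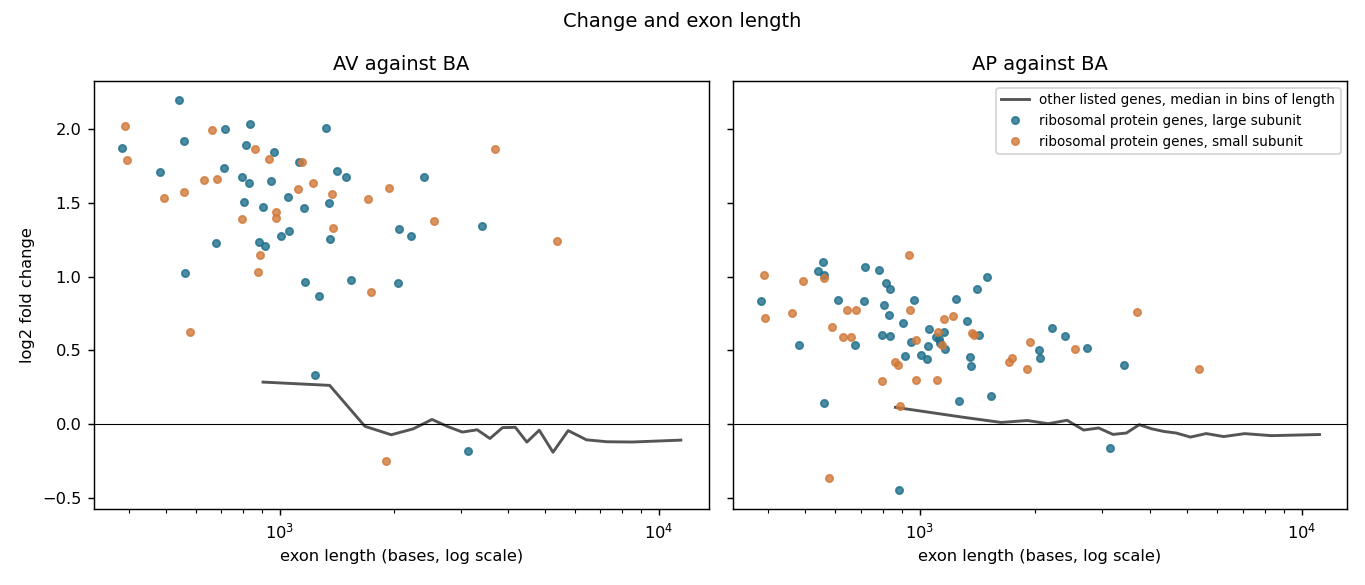
Log2 fold change against exon length (bases, log scale) for ribosomal protein genes of the large (blue) and small (orange) subunit, in AV (left) and AP mice (right), each against BA mice. The grey line is the median of the other listed genes in bins of length. Members lie above this line at nearly all lengths, and the longer ones lie lower, with exceptions such as Rps20 at 3706 bases.

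Start site letters went with small differences in change. Members with a pyrimidine run near the start, which may end before it, had a median log2 fold change of 1.49 in AV mice (22 genes). Those without had 1.40 (25 genes). In AP mice the medians were 0.60 (29 genes) and 0.57 (31 genes). With CGGAAG in the window, the medians were 1.49 (32 genes) in AV and 0.62 (41 genes) in AP mice, and without it 1.33 (15 genes) and 0.47 (19 genes). These differences were smaller than the spread within each set, in which members with a run ranged from 0.62 to 2.19 in AV mice.

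The other mRNAs that carry a TOP motif shared the direction in AV mice at a smaller size. Of 17 such genes outside the ribosome 16 were listed, all 16 had a log2 fold change above zero, 9 rose and 0 fell, with a median of 0.86. Eif3f, a subunit of initiation factor 3, changed most, with 159.6, 157 and 173 in BA mice against 463 and 568 in AV mice (1.65, SE 0.22, adjusted p = 0.00409). Elongation factors were among the called genes: Eef1a1, which delivers tRNA, had 5048, 5299 and 4344 against 10213 and 9893 (1.04, SE 0.22), and Eef2, which moves the ribosome along, had 2685, 2592 and 1786 against 4908 and 5007 (1.1, SE 0.26). In AP mice the median was 0.31, 11 of 16 were above zero and 0 were called or passed an unadjusted p of 0.05 as higher.

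Of 44 initiation and elongation factors, 7 rose and 0 fell in AV mice, near the 13.6% of all genes that rose, with a median of 0.28. This list shares 9 genes with that of the TOP mRNAs, and 6 of its 7 called genes are among them, so that the counts are not separate results. The seventh was Eif1ax, which places the start codon (0.86, SE 0.25). Without the shared genes the median of the factors was 0.19. In AP mice the median of all 44 was 0.10. The regulators of TOP mRNAs had a median of 0.07 in AV mice, with 2 of 12 called, both higher, again near the share of all genes. These were the mTORC1 subunit Rptor (364, 401 and 397 against 614 and 643, 0.70, SE 0.21) and Eif4ebp2, the main 4E-BP of the brain (223, 191 and 194 against 340.0 and 422, 0.90, SE 0.23). Mtor itself was at 0.12 and Larp1 at 0.63, and at the other end Rps6kb1, the kinase of Rps6, was at -0.76 and Tsc1, a brake on mTORC1, at -0.54, and none of these passed the test. In 3 of the 12 genes both AV mice lay above all BA mice and in 4 below them. Over all 9872 genes this held for 2731 above and 3088 below, so that these counts are near the background.

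Genes that make ribosomes did not share the size of the change. Of 26 ribosome biogenesis genes in the BA vs AV table, 2 rose and 1 fell, with a median of 0.16, fewer than the 13.6% and 16.2% of all genes. Nop10, of the H/ACA snoRNP, had 22.9, 39.7 and 28.9 in BA mice against 55.8 and 65.6 in AV mice (1.0, SE 0.28), and Nop2, a 28S RNA methyltransferase, rose by 0.96 (SE 0.25). Polr1a, the largest subunit of RNA polymerase I, fell, with 347, 372 and 287 against 173 and 174 (-0.94, SE 0.22, adjusted p = 0.0223). Of 6 chaperones dedicated to ribosomal proteins, 1 was called, Heatr3, the importer of Rpl5, at -0.79 (SE 0.24, adjusted p = 0.0474). In AP mice the medians of these lists were 0.01 and -0.33, with 0 called.

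Mitochondrial ribosomal proteins, which serve the separate ribosome of the organelle, also stayed apart. Of the 66 listed for AV mice, 2 rose and 1 fell, at the same background, with a median of 0.29, compared with 61 of 65 and 1.54 in the cytosolic family. Mrpl52 had 24.9, 19.8 and 20.1 in BA mice against 49.5 and 62.2 in AV mice (1.33, SE 0.24), and Mrps9 fell from 149.7, 119 and 169 to 65.1 and 71.3 (-1.07, SE 0.24). In the BA vs AP table, the median of 73 mitochondrial ribosomal proteins was 0.06, with 0 called.

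**Figure D5:**
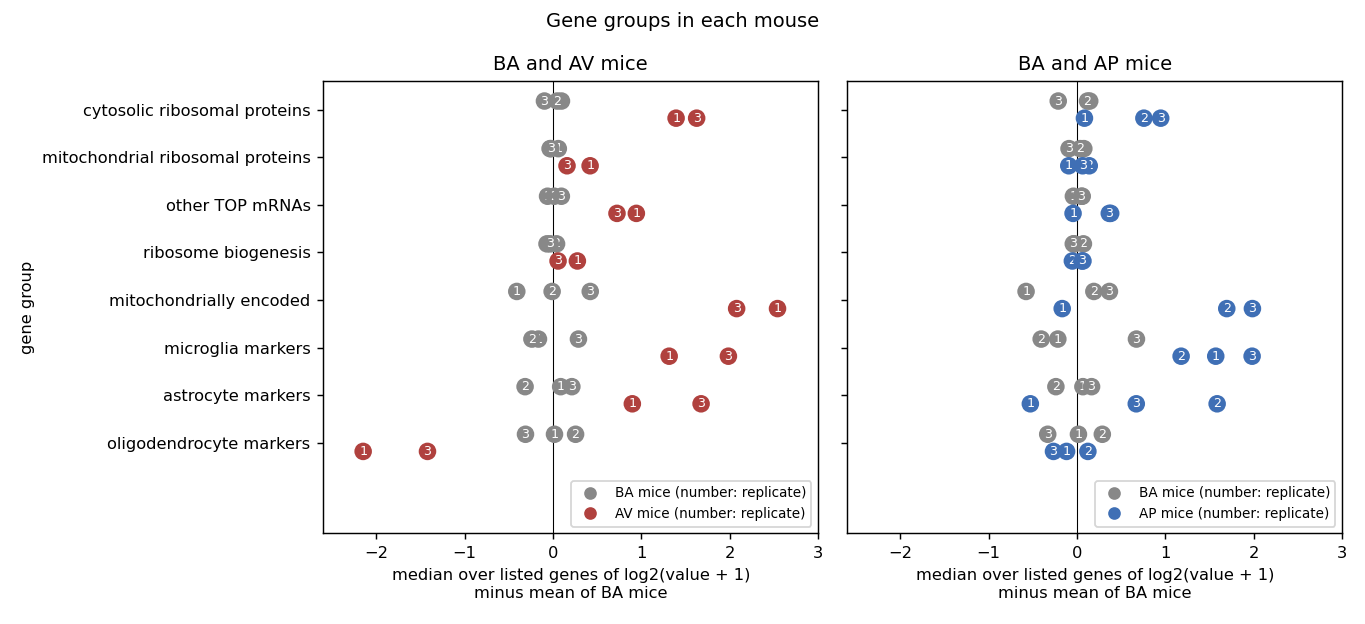
Median difference from the mean of the BA mice, on the log2(value + 1) scale, over the listed genes of 8 groups in each mouse of the BA vs AV table (left) and the BA vs AP table (right). Grey points are BA, red AV and blue AP mice, and the number is the replicate. In AV mice, cytosolic ribosomal proteins lie at 1.39 and 1.62, mitochondrially encoded genes at 2.54 and 2.08 and oligodendrocyte markers at -2.15 and -1.42, and AP replicate 1 separates from the other AP mice in cytosolic ribosomal proteins and mitochondrially encoded genes and also in astrocyte markers (-0.53 against 1.58 and 0.67), but not in microglia markers.

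Markers of other cells also differed in AV mice, some in the direction of the members and some in the opposite direction. Of 10 microglia markers 3 were listed and 3 rose (median 1.65), their summed share going from between 0.00597% and 0.00934% in BA mice to 0.0221% and 0.0273% in AV mice. Of 8 astrocyte markers 6 were listed and 4 rose (median 1.29), with shares between 0.251% and 0.413% in BA mice and of 0.949% and 1.76% in AV mice. Of 10 oligodendrocyte markers 9 were listed, 6 fell and 1 rose (median -1.77), with shares of 1.74% and 2.57% in AV mice. Of 6 endothelial markers 3 were listed and 1, Kdr, fell (median -0.92). Beside these counts, 13.6% of all 9872 genes rose and 16.2% fell, and each list is short. Nrgn, the single excitatory neuron marker listed, had 11.7, 15.8 and 16.3 in BA mice against 129 and 131 in AV mice (3.08, SE 0.24). The part of these cell types in the increase of the ribosomal protein genes was not tested.

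The mitochondrially encoded genes, of which 2 of 13 were listed in the BA vs AV table, rose with the members there. mt-Co3, a subunit of cytochrome c oxidase, had 7443, 11423 and 15811 in BA mice against 70958 and 54505 in AV mice (2.49, SE 0.35, adjusted p = 0.0046). For AP mice 4 were listed, and their median differences were -0.17 in AP replicate 1, 1.69 in replicate 2 and 1.98 in replicate 3, the order of the ribosomal protein genes. Nrgn took the same order, with 5.41, 113 and 397 in AP replicates 1, 2 and 3 against 14.8, 20.4 and 16.7 in BA mice. Their part in the members' values was not tested.

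Microglia markers behaved otherwise in AP mice. All 10 were listed, with a median of 1.59, and the median differences were 1.57, 1.18 and 1.98 in AP replicates 1, 2 and 3, so that AP replicate 1, which was near the BA mice in ribosomal proteins at 0.08, was high in these. Their summed share was between 0.031% and 0.0672% in BA mice and 0.123%, 0.0893% and 0.168% in AP mice. Astrocyte markers had median differences of -0.53, 1.58 and 0.67 in the same mice, and oligodendrocyte markers of -0.12, 0.12 and -0.27, and none of these markers was called. Gad2 was the single GABA neuron marker of 6 with values, at -0.24.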

How the data were processed

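RNA of cells sorted as Thy1-YFP amygdala neurons was sequenced for 3 BA, 3 AV and 3 AP mice. What the authors deposited is a normalized signal, 1 value per gene and mouse, for which the methods name a TMM scaling of libraries, removal of genes with low counts and the batch correction ARSyN. The sources used here do not say whether that correction covers both tables. The submitters' processing notes name bcl2fastq 2.20, Salmon 1.2 and GRCm38.p6. The library kit keeps strand, and the input of total RNA differed between libraries. AV replicate 2 was not analysed here, since the authors removed it.

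Gene identifiers were matched to GENCODE M21 of GRCm38, which gave a symbol for 9871 of 9872 and 11778 of 11820 rows. Exon length is the union of exons of protein-coding transcripts. The test was limma 3.58.1 (R 4.3.3), run for each comparison on log2(value + 1) of all genes in its table and without covariates, with Benjamini-Hochberg adjusted p under 0.05 as a call. A fold change on this scale understates the change of low genes. NOISeq, which the study used, was not run. The fits were tested on simulated data. Python 3.11.15, numpy 2.4.6, pandas 2.3.3 and matplotlib 3.10.9 were used.

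Members, lists and named genes were chosen with earlier results of these data known. Named were the 8 called members with the largest change, or the 5 highest and lowest by change where fewer than 4 were called, the 5 highest and lowest by BA level per kilobase, Rps6, Rps27a, paralogues, the P stalk, the 5S particle, the mRNA exit, further ribosomal proteins and the called gene with the largest change of each other list. Some genes that this rule covers are not reported here. Rps3 and the other members not called or least changed in AV mice, members named as the lowest of a list, Eef1a1, Eef2, Eif1ax, Rptor, Mtor, Larp1, Rps6kb1, Tsc1 and Nop2 were named after their values were seen. RefSeq promoter windows came from GRCm38.p6. A motif could overlap another. Alternatives covered pseudocounts, filters, scaling, exon length, the variance model, the threshold, the offset of the BA vs AP table, each mouse left out and the replicate number as a block.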

Additional observations from a re-analysis of the deposited data

Results flagged for a closer look

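Rps27l, the p53-induced paralogue of Rps27, stood out because all AV mice lay on one side of the BA mean and all AP mice on the other. Its log2 fold change was 0.6232 in AV mice, where both mice lay above the BA mean, and -0.3612 in AP mice, where all 3 lay below it. Neither value passed an adjusted p of 0.05, the comparisons share their BA mice, and the difference was not tested. Other members also differed in sign between the comparisons without such a split of all mice, among them Rpl27 (1.24 in AV and -0.44 in AP mice) and Rps3 (-0.25 and 0.37).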

How the results depend on the processing

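Of 88 values that answer a comparison under an alternative, 78 kept their size and side of the threshold. In AV mice, 61 members were called, 34 with the replicate number as a block and between 51 and 59 without 1 mouse. Whether these numbers pair the mice is not known. In the BA vs AP table, same-numbered mice correlated between 0.02 and 0.12, and 6 of 6 mice correlated best with their own number. In the BA vs AV table, same-numbered mice correlated at -0.06 and -0.04, which cannot decide the question. After centring within groups, the 2 AV mice are mirror images of each other. The members' median of 1.54 in AV mice was 1.26 with the exon length trend removed and between 1.39 and 1.62 without 1 mouse. Its large minus small difference of -0.06 turned to 0.044 with quantile normalization, 0.032 with the block and 0.039 without the length trend, and lay between -0.084 and 0.032 without 1 mouse. In AP mice, 0 members were called under every alternative, the median of 0.60 lay between 0.44 and 0.86 and the large minus small difference of 0.01 between -0.038 and 0.081 without 1 mouse. Centring the mice on their medians moved the median of all genes in the BA vs AV table from -0.03 to -0.10, and the members' median above it stayed at 1.56.

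Of 1149 values of single genes, 1081 kept direction and call, 59 lost the call and 9 turned, none of them called. In AV mice, Rps3 was 0.20 with quantile normalization and 0.081 with the block, and without 1 mouse it lay between -0.54 and 0.081, Rpl12 between -0.037 and 0.71 and Rpl7l1 between -0.73 and 0.36. In AP mice, Rpl22l1 was -0.036 without the length trend, and without 1 mouse it lay between -0.14 and 0.52 and Rps27a between -0.021 and 0.25. The causes were not tested. The number of counted reads is unknown for AV mice, and 2 AV mice bound the precision.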
